A study of Mus musculus with 6 samples.

Results

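The proteasome genes of the mouse were taken as the symbols Psma, Psmb, Psmc, Psmd, Psme, Psmf and Psmg followed by a number and at most 1 letter. Of 49 annotated genes with such a symbol, 46 had a row among the 18732 genes of the authors' comparison, and 45 of these had an adjusted p. Psma8, Psmb9 and Psme2b were not analysed here. The 46 genes were placed by role as 7 core alpha subunits, 7 constitutive core beta subunits, 3 inducible or tissue-specific core subunits, 6 ATPases, 3 non-ATPase base subunits, 8 lid subunits, 7 assembly factors and 5 activators or inhibitors.

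RNA was purified with tagged ribosomes from mouse striatum and sequenced, in 3 libraries from morphine-treated and 3 from saline-treated mice. Every group shared the same alleles: Cre driven from Oprm1, the mu opioid receptor gene, and at Rosa a GFP-L10a, a ribosomal protein fused to GFP, that is switched on by Cre. The tag thus marks cells that express Cre from this locus or once did. The sample labels give Oprm1Cre/+ and the series description Oprm1Cre/Cre, and this was not resolved. Morphine was given under the skin at rising doses of 20, 40, 60 and 100 mg/kg, with 2 injections a day for 5 days, and controls received saline. Tissue was collected 24 h after the final injection, with 2 brains pooled for each library. Library-level values were not analysed here: depth is unknown, and the standard errors (SE) that the authors give are the only measure of spread. Which of the 6 libraries entered the fit is not stated in the table. A log2 fold change above 0 is read as higher after morphine because the authors put all such calls in a sheet marked Up, and each direction would turn if the fit ran the other way.

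The proteasome is the protease complex that degrades most short-lived and damaged proteins after they have been tagged with ubiquitin. Its barrel-shaped core particle has outer rings of alpha subunits, which gate the entrance, and inner rings of beta subunits, some of which carry the proteolytic sites. A regulatory particle caps the core: its base holds a ring of ATPases that unfold substrates, and its lid removes ubiquitin. In neurons the complex also takes part in the turnover of synaptic proteins.

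Nearly all proteasome transcripts had an estimate slightly below 0 after morphine, and few passed the test. In the authors' deposited table, 3 of the 45 tested genes fell at an adjusted p under 0.05 and 0 rose. Over all 17279 tested genes, 2.01% fell and 11.8% rose by the same test (the authors' DESeq2 Wald test with Benjamini-Hochberg adjustment). The 3 were Psmb2, Psmb7 and Psmd8, or 6.67% of the members. The log2 fold change was below 0 in 42 of the 45, against 51.7% of all tested genes. At an unadjusted p under 0.05, 12 were lower and 0 higher, where 5.97% of all tested genes were lower and 16.2% higher. The median log2 fold change of the members was -0.19, a level 0.879 times that of saline, beside -0.01 for all tested genes. With the members' median SE of 0.14, a gene had to lie at least 0.36 from 0 on the log2 scale to pass, a fall of 22.4%. Differences of the size of the members' median were thus not detectable for a single gene in this comparison. These are bulk libraries of RNA purified with tagged ribosomes. In them, fewer cells of a type, less RNA per cell and less of that RNA on tagged ribosomes cannot be told apart.

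**Figure D1:**
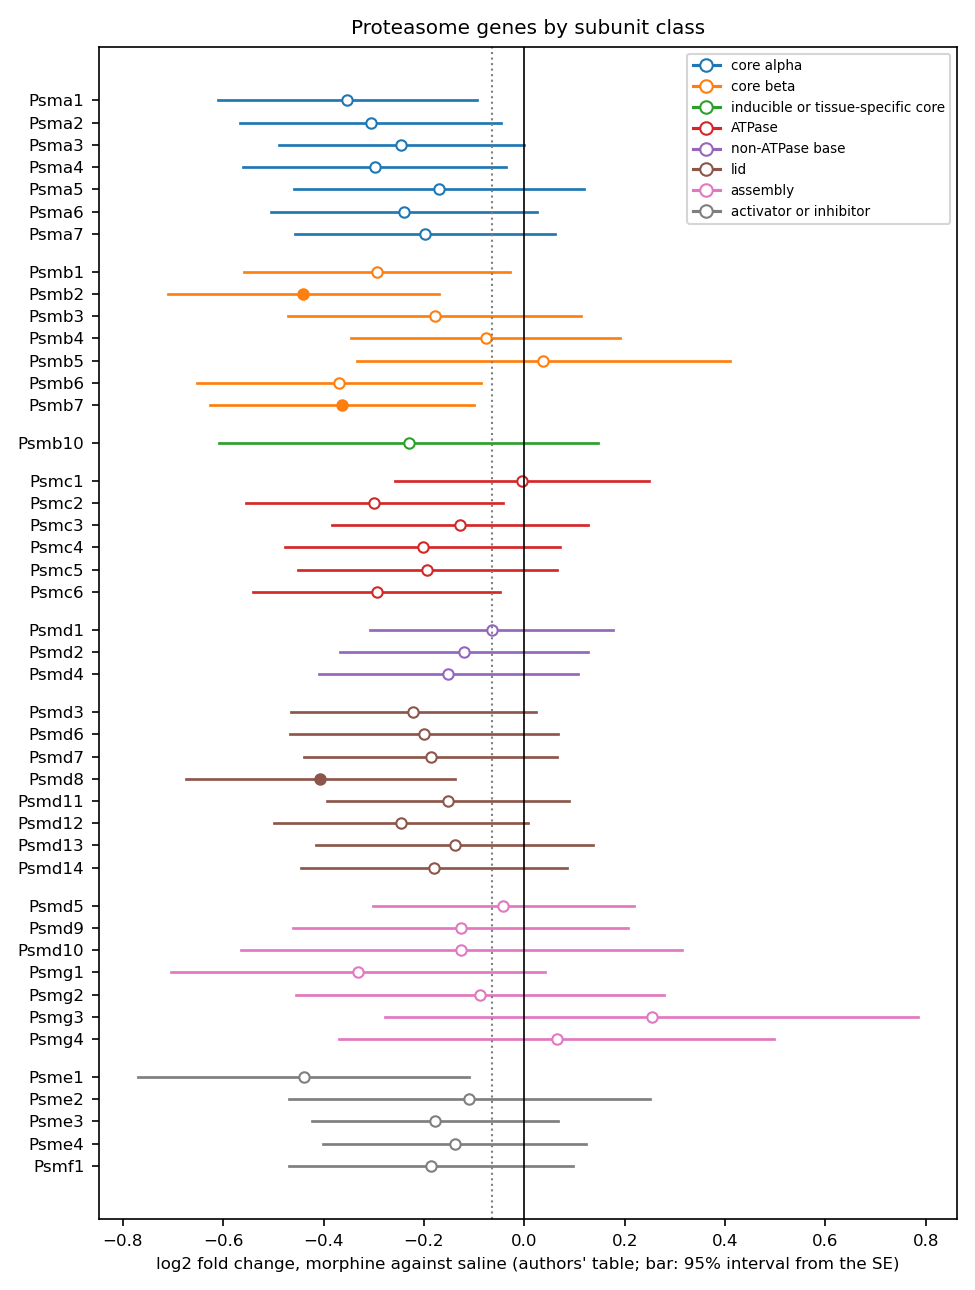
Log2 fold change of morphine against saline for the 44 proteasome genes with a mean of at least 100 (Psmb8 and Psmb11 are left out), by subunit class, from the authors' deposited table. Points are estimates, bars are 95% intervals from the SE, filled points passed an adjusted p under 0.05, and the dotted line is the median of coding genes without a predicted membrane or signal segment (-0.06). Filled points are Psmb2, Psmb7 and Psmd8, and Psmb5, Psmg3 and Psmg4 are the points to the right of 0.

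The 7 alpha subunits of the core were all below 0 and none passed, with 4 at an unadjusted p under 0.05. Their median was -0.24, and they were the narrowest of the larger classes, from -0.35 to -0.17 with a standard deviation between genes of 0.06. In the authors' deposited table the lowest was Psma1 (ENSMUSG00000030751; log2 fold change -0.35, SE 0.13), whose adjusted p of 0.0523 lay just outside the threshold. The highest in the authors' deposited table was Psma5, with -0.17 (SE 0.15, adjusted p = 0.590). The other 3 at an unadjusted p under 0.05 were Psma2 with -0.31, Psma4 with -0.30 and Psma3 with -0.24 in the authors' deposited table. The spread between alpha subunits was smaller than the SE of any 1 of them.

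The 7 constitutive beta subunits held 2 of the 3 genes that fell and also the gene with the highest value of the complex itself. Psmb2, a structural beta subunit, fell by 0.44 on the log2 scale in the authors' deposited table (SE 0.14, adjusted p = 0.0135, 95% interval -0.71 to -0.17). Its level fell by 26.3%, and no other member had a lower fold change. It lies on chromosome 4 at 126677630 to 126709714 of GRCm38 (ENSMUSG00000028837). The proteolytic sites belong to Psmb5, Psmb6 and Psmb7, which cut after hydrophobic, acidic and basic residues respectively. Psmb7 (ENSMUSG00000026750, chromosome 2, 38588036 to 38644087) fell by 0.36 in the authors' deposited table (SE 0.13, interval -0.63 to -0.10), with an adjusted p of 0.0487, just inside the threshold. Psmb6 had nearly the same estimate, -0.37 (SE 0.14), and an adjusted p of 0.0692 in the authors' deposited table. Psmb5 stood at 0.04 in the authors' deposited table (SE 0.19, adjusted p = 0.954), and its interval of -0.33 to 0.41 takes in the values of Psmb6 and Psmb7. Differences between the 3 catalytic genes were not tested. The other 3 beta subunits are structural, and in the authors' deposited table Psmb1 stood at -0.29 (adjusted p = 0.156), Psmb3 at -0.18 (adjusted p = 0.571) and Psmb4 at -0.08 (adjusted p = 0.848).

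Psmb7 shares 11.8% of its exon bases with Nek6, a kinase gene on the opposite strand that stood at -0.12 in the authors' deposited table (SE 0.15, adjusted p = 0.750), and the sources used here do not give whether reads were counted by strand. The call of Psmb7 also ended when the p-values of all genes were adjusted together, without the filter on low means (adjusted p = 0.0528). When fold changes were centred on the median of coding genes without a predicted membrane or signal segment, the calls of Psmb7 (adjusted p = 0.138) and Psmd8 (adjusted p = 0.0755) ended and that of Psmb2 held (adjusted p = 0.0447).

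Inducible core subunits replace the catalytic beta subunits after exposure to interferon, and are abundant in immune cells. Psmb9, the replacement of Psmb6, was not analysed here. Psmb10, the replacement of Psmb7, was well measured and stood at -0.23 in the authors' deposited table (mean 868, SE 0.19, adjusted p = 0.571). Psmb8, the replacement of Psmb5, had a mean of 8.72 normalized counts and no adjusted p in the authors' deposited table (log2 fold change 0.48, SE 1.05, p = 0.649). Per kilobase of exon, the level of Psmb10 was 509 against 1530 for Psmb7, a ratio of 3.01, while Psmb8 was at 2.58 per kilobase against 2108 for Psmb5, a ratio of 817 that rests on the few counts of Psmb8 and is 461 with the longest transcript as length. Psmb11, known from the cortical epithelium of the thymus, had a mean of 33.2 and a log2 fold change of -0.38 in the authors' deposited table (SE 0.72, adjusted p = 0.861). Stretches of Psmb11 at least 95% identical over 100 or more bases also occur in transcripts of other coding genes, among them Mrpl35 and Tmem263. Psmb11 and Psmb5 are neighbours on chromosome 14, 3410 bases apart.

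Markers of other cells were followed because the inducible subunits are abundant in immune cells. Of 7 measured microglial markers 6 rose, with a median log2 fold change of 2.32, by the authors' deposited table. Of the 6 astrocyte markers 5 rose, of the 6 oligodendrocyte markers 5 rose, and of 5 tested endothelial markers 0 rose or fell. The tested endothelial markers had low means of 13.3 to 77.9 and a median log2 fold change of 0.55, with 0 of them below 0. Among them Slco1a4 with 1.36 (adjusted p = 0.0515) and Flt1 with 1.17 (adjusted p = 0.0549) lay just outside the threshold in the authors' deposited table. The means of the microglial markers were 23.2 to 150, and those of 9 markers of spiny projection neurons, the main neurons of the striatum, were 5037 to 136520. Of the latter 4 rose and 0 fell. Over all tested genes 11.8% rose and 2.01% fell. Oprm1, the gene of the mu opioid receptor, had a mean of 658 and a log2 fold change of 0.29 in the authors' deposited table (SE 0.18, adjusted p = 0.350). The part of other cell types in the proteasome values was not tested.

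The 6 ATPases, which form the ring that unfolds substrates and threads them into the core, were all below 0, and none passed. Their median was -0.20, and 2 were at an unadjusted p under 0.05. In the authors' deposited table the lowest was Psmc2 at -0.30 (SE 0.13, adjusted p = 0.125), closely followed by Psmc6 at -0.29. The highest was Psmc1, with -0.0045 in the authors' deposited table (SE 0.13, adjusted p = 0.991, interval -0.26 to 0.25), a value whose sign turned with every centring tried. Psmc3, Psmc4 and Psmc5 had adjusted p-values of 0.673, 0.450 and 0.443 and log2 fold changes of -0.13, -0.20 and -0.19 in the authors' deposited table. Psmc3 shares 8.25% of its exon bases with Slc39a13 on the opposite strand. Slc39a13 rose by 0.60 in the authors' deposited table (SE 0.18, adjusted p = 0.0101), and the reservation on strand given for Psmb7 holds here too.

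The 3 non-ATPase subunits of the base had a median of -0.12, nearest to 0 of the 3 classes of the regulatory particle. Psmd1 and Psmd2 are large scaffold subunits and Psmd4 is a receptor for ubiquitin chains. In the authors' deposited table they ran from -0.15 for Psmd4 (SE 0.13, adjusted p = 0.592) to -0.07 for Psmd1 (SE 0.12, adjusted p = 0.861), with Psmd2 at -0.12. None of the 3 passed or reached an unadjusted p under 0.05.

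The 8 lid subunits were all below 0, with 1 that fell. Psmd8, a lid subunit (ENSMUSG00000030591, chromosome 7, 29174188 to 29180701), fell by 0.41 on the log2 scale in the authors' deposited table (SE 0.14, adjusted p = 0.0242, interval -0.67 to -0.14), and its level fell by 24.6%. The other 7 lay between -0.25 and -0.14, and none of them was at an unadjusted p under 0.05. In the authors' deposited table Psmd14, the deubiquitinase of the lid, stood at -0.18 (SE 0.14, adjusted p = 0.507), its partner Psmd7 at -0.19 (SE 0.13) and the highest of the class, Psmd13, at -0.14 (SE 0.14, adjusted p = 0.670). Psmd13 shares 10.1% of its exon bases with Sirt3 on the opposite strand. Sirt3 stood at 0.12 in the authors' deposited table (SE 0.13, adjusted p = 0.728), and the reservation on strand given for Psmb7 holds here too. Psmd3, a lid scaffold with the highest mean of all members (13594), stood at -0.22 in the authors' deposited table (SE 0.12, adjusted p = 0.300).

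Assembly factors had a median nearer to 0, at -0.09, and larger SEs. The class holds Psmg1 to Psmg4, chaperones that build the alpha ring, and Psmd5, Psmd9 and Psmd10, chaperones of the base. None of the 7 passed, and none was at an unadjusted p under 0.05. They ran, in the authors' deposited table, from Psmg1 at -0.33 (SE 0.19, adjusted p = 0.313) to Psmg3 at 0.25 (SE 0.27, adjusted p = 0.697). Psmg3 and Psmg4 had the lowest means of the class, 182 and 302 in the authors' deposited table, and were the 2 members of the class above 0. Psmg1 and Psmg2 act as a pair, as do Psmg3 and Psmg4, and within each pair the 95% intervals overlapped. The base chaperones were near to each other in the authors' deposited table, with -0.04 for Psmd5, -0.13 for Psmd9 and -0.13 for Psmd10.

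Activators bind the ends of the core in place of the regulatory particle. Psme1 and Psme2 are interferon-inducible and form 1 mixed ring, Psme3 forms a nuclear ring of its own, Psme4 is a single large activator, and Psmf1 was first described as an inhibitor of the core. All 5 were below 0 with a median of -0.18, and none passed. Psme1 had an estimate as low as that of Psmb2, -0.44, but a wider SE of 0.17, and its adjusted p in the authors' deposited table was 0.0622. Its partner Psme2 was, in the authors' deposited table, the highest of the class, with -0.11 (SE 0.18, adjusted p = 0.836). Psme3, Psme4 and Psmf1 lay between them with -0.18, -0.14 and -0.19 in the authors' deposited table. The values of Psme2 carry a reservation, since its transcript is 99.4% identical over 794 bases to that of Psme2b. Psme1 and Psme2 lie 5911 bases apart on chromosome 14.

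Between classes the medians ran from -0.30 in the inducible or tissue-specific core (2 tested genes) and -0.29 in the constitutive beta subunits to -0.09 in the assembly factors. The 14 constitutive core genes had a median of -0.27 with 8 at an unadjusted p under 0.05, and the 17 genes of the regulatory particle had -0.19 with 3. Differences between classes were not tested. With fold changes centred on coding genes without a predicted segment, the median became -0.02 in the assembly factors, -0.05 in the non-ATPase base, -0.11 in the activators or inhibitors and -0.13 in the lid. Of all 31 genes of the constitutive particle 30 were below 0.

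Levels per kilobase of exon spanned a 6.29-fold range among the 31 constitutive subunits, and most of their helpers were lower. These are the authors' means over the fitted libraries, morphine and saline together, divided by the length of all annotated exons of a gene, and they have no error of their own. Alpha subunits ran from 1163 for Psma1 to 2398 for Psma6, a ratio of 2.06, but with the longest transcript as length Psma1 was the highest alpha subunit (2858) and Psma5 the lowest (1304). Constitutive beta subunits ran from 949 for Psmb3 to 3125 for Psmb2, and with the longest transcript as length Psmb6 (4545) stood above Psmb2 (4380). The ATPases ran from 920 for Psmc2 to 4106 for Psmc5, and the lid from 653 for Psmd13 to 2737 for Psmd3. Assembly factors had levels per kilobase of 62.8 for Psmg3 to 543 for Psmg4, below every gene of the constitutive particle, also when the longest transcript was taken as the length. Among the activators Psme3 stood out with 2640 normalized counts per kilobase, 5.32 times the level of Psme1, while Psme4 stood at 0.921 times the level of Psme1, or 1.07 times with the longest transcript as length.

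**Figure D2:**
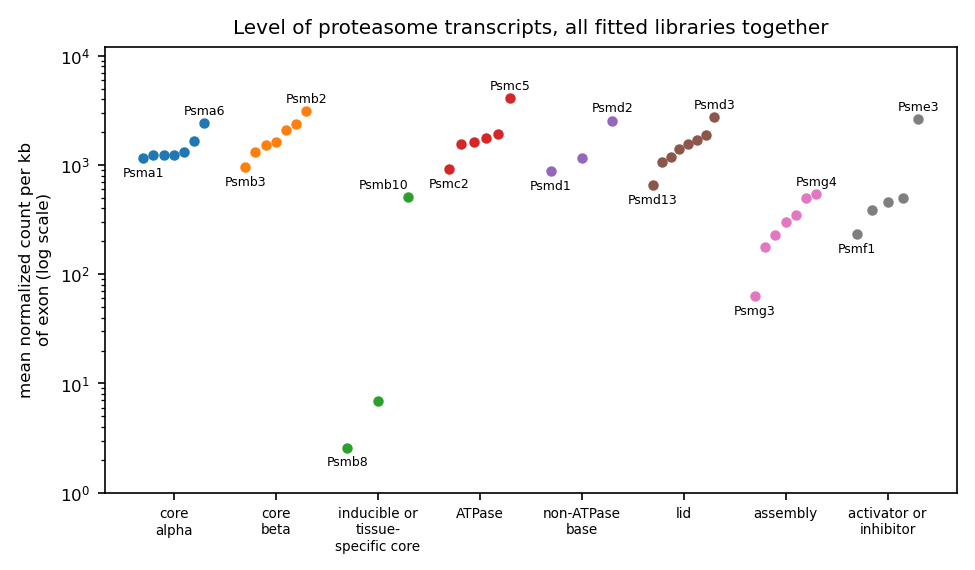
Mean normalized count per kilobase of exon (log axis) for the 46 proteasome genes by class, each point 1 gene, with the lowest and highest of each class named. The constitutive classes lie between 653 and 4106, assembly factors between 62.8 and 543, and Psmb8 lies at 2.58.

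Genes outside the symbol rule that serve the proteasome were followed in a list of 31 measured genes. Of these, 2 rose and 1 fell in the authors' deposited table, with 20 below 0 and a median of -0.07. Over all tested genes 11.8% rose and 2.01% fell, and 51.7% were below 0. Pomp, the factor that brings beta subunits onto the alpha ring, fell by 0.43 on the log2 scale in the authors' deposited table (mean 4798, SE 0.15, adjusted p = 0.0273), a call that ended when fold changes were centred on coding genes without a predicted segment (adjusted p = 0.0777). Nfe2l2, a transcription factor of the antioxidant response, rose by 1.16 in the authors' deposited table, at a low mean of 74.6 (SE 0.39, adjusted p = 0.0245). Faf2, an adaptor of the p97 ATPase in the removal of proteins from the endoplasmic reticulum, rose by 0.38 in the authors' deposited table (SE 0.14, adjusted p = 0.0493), but not with the p-values of all genes adjusted together (adjusted p = 0.0534).

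The 4 genes of that list with an adjusted p between 0.05 and 0.1, and Adrm1 as a further subunit, are named after their values were seen. Sem1, a small lid subunit, stood at -0.37 (SE 0.15, adjusted p = 0.0813) and Adrm1, a ubiquitin receptor of the base, at -0.12 (SE 0.13, adjusted p = 0.672), both by the authors' deposited table. Uchl5, the deubiquitinase that Adrm1 holds, stood at -0.38 in the authors' deposited table (SE 0.15, adjusted p = 0.0622). Nfe2l1, the transcription factor that raises proteasome genes when the complex is impaired, stood at 0.30 in the authors' deposited table (SE 0.12, adjusted p = 0.0815). It passed when fold changes were centred on coding genes without a predicted segment (adjusted p = 0.0191). Nfe2l1 itself was not among those genes, since it has a predicted segment, found only near the end of its protein. Coding genes with a predicted segment had a median of 0.58, above the value of Nfe2l1, and centring on that median was not tested. Rad23b, a shuttle factor that carries ubiquitin-tagged proteins to the proteasome, stood at -0.32 in the authors' deposited table (SE 0.12, adjusted p = 0.0669).

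Coding genes without a predicted membrane or signal segment also lay mostly below 0. Such a segment is a hydrophobic stretch predicted here from the coding sequence, and of the 46 members only Psmd7 had one. Of 3641 tested coding genes with a predicted segment 45.9% rose, with a median of 0.58. Of 10062 tested coding genes without one 280 rose and 151 fell, with a median of -0.06 and 63.0% below 0. With the mean held within the range of the constitutive particle (1616 to 13594), 4036 such genes had a median of -0.09, with 71.7% below 0, 2.18% that fell and 8.57% lower at an unadjusted p under 0.05. For all 45 tested proteasome genes, with means down to 33.2, the median was -0.19 and 93.3% were below 0. Of them 6.67% fell and 26.7% were lower at an unadjusted p under 0.05. For the 31 genes of the constitutive particle alone, the median was -0.20 and 96.8% were below 0. Of these 9.68% fell and 35.5% were lower at an unadjusted p under 0.05. The differences were not tested. Side by side, the 77 genes of mitochondrial ribosomal proteins had a median of -0.22 with 98.7% below 0 and 3 that fell, the 83 of cytosolic ribosomal proteins had -0.09 with 0 that fell, and the 7 tested genes of the cytosolic chaperonin had -0.11 with 0 that fell. At an unadjusted p under 0.05, 24, 5 and 0 genes of these 3 sets were lower.

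**Figure D3:**
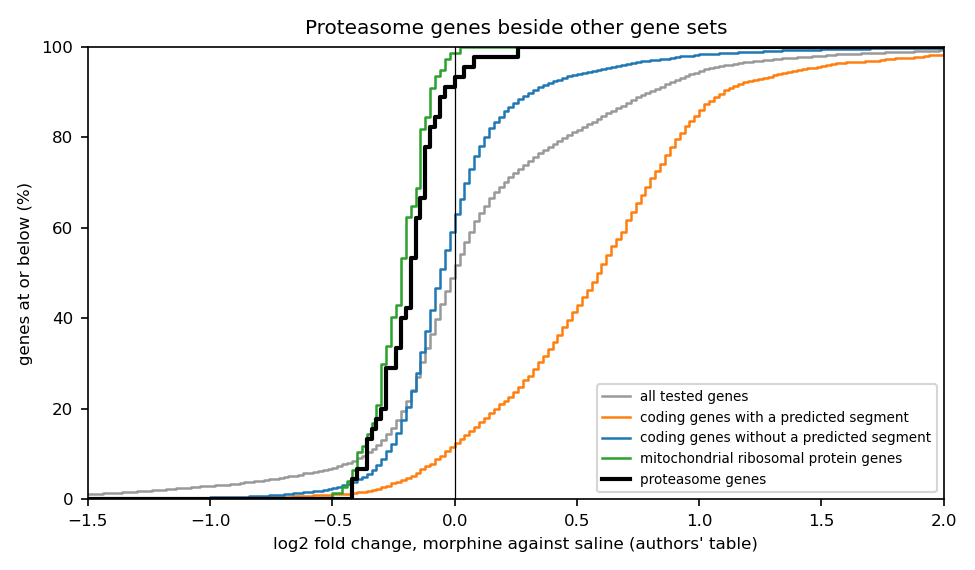
Share of genes (in percent) at or below each log2 fold change of the authors' deposited table, for proteasome genes, genes of mitochondrial ribosomal proteins, coding genes with and without a predicted segment and all tested genes. The proteasome curve (median -0.19) runs close to that of mitochondrial ribosomal proteins (-0.22), left of coding genes without a segment (-0.06) and far left of those with one (0.58).

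Many proteasome genes have processed pseudogenes, which arise when an mRNA is copied back into the genome. By sequence, 41 annotated pseudogenes had a member as their closest coding transcript, from 19 members, and 14 of these were at least 95% identical to it. The authors' deposited table held 13 of the 41, of which 9 had an adjusted p, and all 9 were below 0, with a median of -0.94. Over all 977 tested processed pseudogenes the median was -0.88 and 18.8% fell. Gm13835, which matches Psma3 without a mismatch over 685 bases, fell by 1.10 in the authors' deposited table (SE 0.29, adjusted p = 0.00231), while Psma3 stood at -0.24 (SE 0.12, adjusted p = 0.225). The next in size by mean, Gm6542, a copy of Psma4, stood at -0.51 in the authors' deposited table (SE 0.48, adjusted p = 0.646). Reads of such copies and of their parents cannot be told apart with certainty. The mean of each measured copy was at most 2.14% of its parent's. The 7 tested members with a measured near-identical copy had a median of -0.17, and the 38 without one had -0.20 and held all 3 genes that fell.

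**Figure D4:**
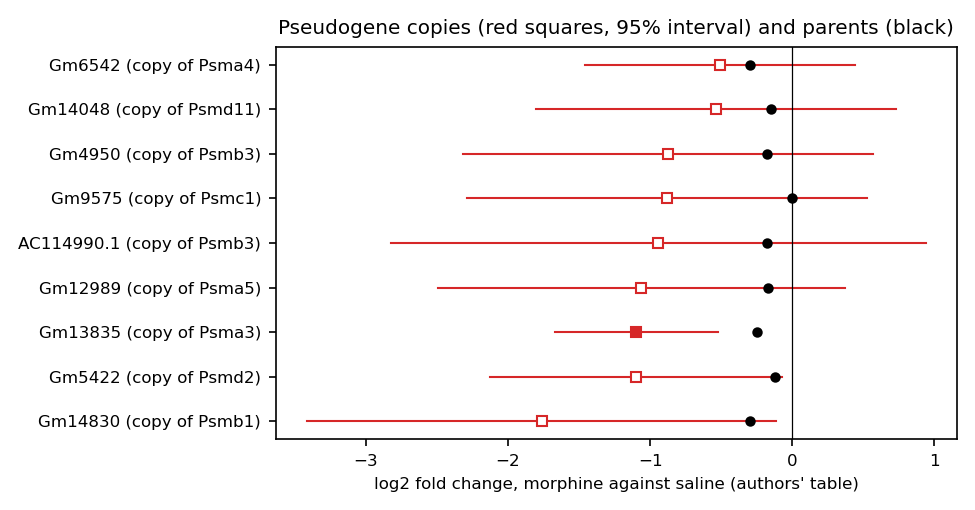
Log2 fold change of the 9 tested pseudogene copies of proteasome genes (squares, bars are 95% intervals from the SE) and of their parents (black points), from the authors' deposited table. The filled square, Gm13835, passed an adjusted p under 0.05, and every square lies left of its parent.

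Promoter windows were searched for short motifs because proteasome genes are known to respond together to transcription factors of the CNC-bZIP family, such as Nfe2l1. The search used windows of 250 bases before to 50 after the annotated start, which came from RefSeq on GRCm38.p6 and were found for 39 of the 46 members, with 42 windows in all. Psmb1, Psmb2, Psmb7, Psmc3, Psmd3, Psmd7 and Psmg2 were not matched. On both strands, the CNC-bZIP element TGACNNNGC occurred in 14.3% of the members' windows, against 12.4% of all 32851 windows and 13.97% of those of tested coding genes. The 6 members with it are shown because they bear on the catalytic subunits and give the range of values that genes with this element had, and the capitals mark the match, on either strand.
Psmb5 (chr14:54618024-54618052, minus strand): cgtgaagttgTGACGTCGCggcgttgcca
Psmb6 (chr11:70525338-70525366, plus strand): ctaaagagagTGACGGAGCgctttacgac
Psmc6 (chr14:45329587-45329615, plus strand): ccagccagtaGCTAAGTCAggcattgctc
Psmd9 (chr5:123228149-123228177, plus strand): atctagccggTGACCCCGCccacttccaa
Psmd12 (chr11:107479278-107479299, plus strand): tctGCTGTGTCAcatttgcccc
Psme4 (chr11:30771758-30771786, plus strand): cgctgcggctGCAGCGTCAccagaagagc
The 6 ran from -0.37 for Psmb6 to 0.04 for Psmb5 in the authors' deposited table. Their median log2 fold change of -0.19 was close to the -0.18 of the 32 tested members whose windows lacked the element.

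The GC box, with the letters GGGCGG, occurred in 54.8% of the members' windows, against 35.7% of all windows and 61.2% of those of tested coding genes. The NF-Y box CCAAT occurred in 31.0% against 37.4% of all windows, and the TATA box TATAAA in 9.52% against 13.6% of all windows and 7.18% of those of tested coding genes. The interferon-stimulated element, searched as GAAA on both sides of any 2 bases, occurred in 5 of the 42 windows, or 11.9%, against 3.44% of all windows and 2.73% of those of tested coding genes. The 5 were those of Psmb3, Psmd4, Psmd9, Psme1 and Psmg4, which ran from -0.44 to 0.06 in the authors' deposited table. Among the members' windows, 1 pair of different motifs overlapped. In Psme1 and Psmg4 the element begins after the annotated start, at 9 and 15 bases, and in Psmb3, Psmd4 and Psmd9 it lies before it. The RefSeq start of Psme1 also lies inside its GENCODE gene, which begins at 55578123. The element in Psme1, the interferon-inducible activator with an estimate of -0.44, and that in Psmd4, a constitutive subunit, are shown in the same way, both matched on the reverse strand.
Psme1 (chr14:55578493-55578522, plus strand): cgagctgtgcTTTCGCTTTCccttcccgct
Psmd4 (chr3:95042675-95042704, minus strand): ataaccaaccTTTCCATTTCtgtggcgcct
Psmd8 is the only one of the 3 genes that fell with a window, and the 250 bases before its start are given with the GC box in capitals.
Psmd8 (chr7:29180674-29180923, minus strand): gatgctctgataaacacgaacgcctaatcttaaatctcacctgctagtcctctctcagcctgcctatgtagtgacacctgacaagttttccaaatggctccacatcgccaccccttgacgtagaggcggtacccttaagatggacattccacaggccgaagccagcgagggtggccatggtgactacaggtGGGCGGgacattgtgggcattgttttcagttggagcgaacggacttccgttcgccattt
Members with a GC box had a median log2 fold change of -0.20 (22 tested genes) and those without one -0.18 (16 tested genes). Those with a CCAAT box had -0.20 (13 tested genes) and those without one -0.17 (25 tested genes). A match is a description of the letters in these windows.

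**Figure D5:**
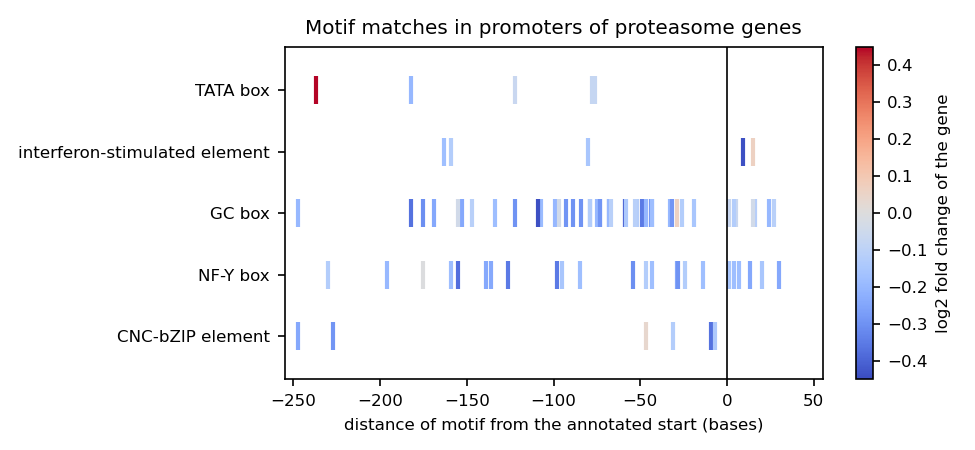
Position of motif matches in the 42 promoter windows of proteasome genes, as distance in bases from the annotated start, with the log2 fold change of the gene in colour. Of the 6 matches of the CNC-bZIP element 5 lie before the start and that of Psme4 spans it, and colours from -0.37 to 0.04 occur among them.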

How the data were processed

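The authors' comparison table was used, 4 sheets of 1 comparison, and the 3 smaller sheets held the same fold changes as the full one. The submitters' processing notes list DESeq2 1.20.0 and STAR 2.6.1d, with GRCm38 and mm10 as builds. Which counter, strand setting, model and libraries were used was not given in the sources used here. Each mean is a signal the authors deposited, counts divided by size factors and averaged. The authors' deposited fold change is on the log2 scale with its SE, and their deposited statistic is a score, the fold change divided by that SE. The authors' deposited p-value is two-sided, with Benjamini-Hochberg adjustment over 17279 genes. The adjustment recomputed from the p-values differed by at most 2.11e-15, and the 1453 genes without one had means of at most 10.9. Per the labels, RNA had an integrity number above 8.

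Symbols, positions and exon lengths came from GENCODE M21 on GRCm38, matched by gene identifier for all 18732 genes. Intervals of 95% were computed from the SE. Membrane segments were called where hydropathy (Kyte-Doolittle) averaged 1.9 or more over 19 residues, and signal segments where it averaged 2.2 or more over 12 of the first 40. Genes with a segment only in the last 50 residues were in neither class. Pseudogenes were matched with blastn 2.17.0 over at least 100 bases. Alternatives were other thresholds, adjustments and centrings of the fold change, other sets of members and another length. The adjustment and centring steps were tested on simulated data in which few genes changed, with rises and falls equally likely. The real comparison had 2036 genes that rose and 347 that fell, so the simulation does not show how centring behaves there. Members and lists were chosen with earlier results of these data known, and so was the split by predicted segment. Full statistics were given to members past the threshold, to the highest and lowest tested member of each class and to the catalytic pairs, and of the partner list to the called genes. Scripts ran in Python 3.11.15 on matplotlib 3.10.9, Biopython 1.88, scipy 1.17.1, pandas 2.3.3 and numpy 2.4.6.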

Additional observations from a re-analysis of the deposited data

How the results depend on the processing

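The median log2 fold change of the members, or the weighted or unweighted mean in its place, stayed between -0.20 and -0.12. For the members and their 8 classes all 55 alternative medians and 18 means stayed below 0. Many class medians could not move, since leaving out low means or adding untested members altered only the inducible or tissue-specific class. Leaving out members with a near-identical copy likewise left the inducible, assembly and activator classes as they were. Centring on coding genes without a predicted segment took the assembly factors from -0.09 to -0.02 and the non-ATPase base from -0.12 to -0.05. The count of members that fell, 3 with the authors' values, was 0 at a threshold of 0.01 and with Holm adjustment, 6 at a threshold of 0.1, and 1 (Psmb2) when fold changes were centred on genes of like mean level or on coding genes without a predicted segment. Psmb2 passed in 6 of 8 alternatives, Psmd8 in 4 and Psmb7 in 2. The highest adjusted p of all 3 was 1, with Holm adjustment. Psma1 passed when only genes with means from 100 up were adjusted (adjusted p = 0.0436). Psmc1 turned sign with each centring, to 0.0082, 0.031 and 0.060. Of the partner genes, the 2 that rose became 1 with adjustment over all p-values or, where Nfe2l2 was no longer tested, over genes with means from 100 up, 0 at a threshold of 0.01 and with Holm adjustment, and 3, with Nfe2l1, at a threshold of 0.1 and with the same 2 centrings. The 1 that fell became 4 at a threshold of 0.1, and 0 at 0.01, with Holm adjustment and with those 2 centrings. The median level per kilobase, 1229 over tested members, was 2035 with the longest transcript as length, which is never longer than all exons together. Changes with thresholds and adjustments follow from the rules applied, and the cause of those with centring was not tested. Leaving out members that share exon bases with a measured gene, chosen after seeing the data, left 2 that fell. No paired analysis was possible because values per library were not analysed here. Depth per library is unknown, and the SEs limit single genes to changes of about 0.36 on the log2 scale.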

Other observations

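Within the 31 genes of the constitutive particle, longer proteins had fold changes nearer to 0. Spearman's rho of protein length with log2 fold change was 0.39, across genes that share their libraries. Length goes with the part of the complex here: the longest core protein had 277 residues (Psmb7) and the shortest of the regulatory particle 310 (Psmd14). Over 10062 coding genes without a predicted segment rho was 0.23, and over all 45 tested members it was 0.08. With the length of the longest transcript instead, rho was 0.05 in the constitutive particle and 0.25 in coding genes without a predicted segment. For the mean level rho was -0.21 in the constitutive particle and -0.15 in coding genes without a predicted segment. Members with a mean above the member median of 3542 held all 3 genes that fell, and all 22 of them were below 0.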
